A study of Mus musculus with 7 samples.

Results

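Red cell genes were followed in osteolineage cells sorted from mouse bone marrow, a preparation labelled as stromal. The 7 genes are Hba-a1, Alas2, Slc4a1, Epb42, Klf1, Gata1 and Ermap. They were found by symbol in the gene field of the array's annotation, fields with several symbols included, which gave 13 of the 22626 probe sets that were not controls. The annotation names 13319 gene symbols in all. Ocn+ and Osx+ cells both came from OsxCre-mCherry;OcnCre-Topaz double transgenic mice aged 4 to 6 weeks, and were sorted 6 days after tamoxifen. Ocn+ cells carried the green Topaz reporter of osteocalcin, a matrix protein of mature osteoblasts, and had 3 arrays. Osx+ cells carried the red mCherry reporter of osterix, which drives the step to the osteoblast lineage, and had 4 arrays. The colour at sorting thus defines each group, and cells that showed both are not analysed here. The labels do not say which arrays share an animal or whether cells of several animals were pooled, so every p-value rests on the spread among these samples alone, and that spread may be technical.

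Red cells arise in the marrow from nucleated erythroblasts that ripen around macrophages, fill with hemoglobin and expel their nucleus. The transcription factors Gata1 and Klf1 switch on genes for globin, heme synthesis and the red cell membrane, binding GATA motifs and CACCC boxes at those genes. Alas2 makes the first intermediate of heme in erythroid cells, and Hba-a1 encodes the alpha chain of hemoglobin. Slc4a1 encodes band 3, the anion exchanger of the red cell membrane, and Epb42 encodes protein 4.2, which ties band 3 to the skeleton beneath it. Ermap encodes a membrane protein of erythroblasts and red cells. Cells of the bone lineage are not known for this programme, so its signal was read here as a property of the whole sorted sample. In bulk RNA, fewer cells of a type and less RNA per cell cannot be told apart.

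The sequence upstream of 4 members is shown because these genes shared their order over the arrays, in whole or in part, and because Gata1 and Klf1 act through such motifs. Windows are the 250 bases before the start, 5′ to 3′ on the gene's strand, from RefSeq (GRCm38.p6), with matches in capitals. A GATA motif was the word GATA preceded by A or T and followed by A or G, and the box was CACCC. Each was sought on both strands, and within these windows no match of one overlapped a match of the other. Hba-a1 lay at chr11:32283422-32283671 (+), Alas2 at chrX:150547167-150547416 (+), Klf1 at chr8:84901732-84901981 (+) and Gata1 at chrX:7967911-7968160 (-).
Hba-a1: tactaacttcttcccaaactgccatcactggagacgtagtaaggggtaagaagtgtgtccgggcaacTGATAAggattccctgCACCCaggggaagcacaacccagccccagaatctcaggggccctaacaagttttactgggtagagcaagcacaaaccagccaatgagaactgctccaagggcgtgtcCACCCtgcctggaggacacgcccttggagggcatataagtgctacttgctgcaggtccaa
Alas2: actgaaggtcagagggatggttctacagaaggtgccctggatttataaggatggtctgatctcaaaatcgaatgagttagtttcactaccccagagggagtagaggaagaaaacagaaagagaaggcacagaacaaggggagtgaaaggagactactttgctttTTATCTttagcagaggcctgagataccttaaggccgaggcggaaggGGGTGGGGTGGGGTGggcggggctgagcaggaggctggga
Klf1: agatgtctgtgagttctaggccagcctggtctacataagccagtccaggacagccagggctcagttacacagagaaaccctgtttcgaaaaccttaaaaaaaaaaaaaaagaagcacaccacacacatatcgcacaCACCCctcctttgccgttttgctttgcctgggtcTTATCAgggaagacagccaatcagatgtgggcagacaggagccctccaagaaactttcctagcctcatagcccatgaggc
Gata1: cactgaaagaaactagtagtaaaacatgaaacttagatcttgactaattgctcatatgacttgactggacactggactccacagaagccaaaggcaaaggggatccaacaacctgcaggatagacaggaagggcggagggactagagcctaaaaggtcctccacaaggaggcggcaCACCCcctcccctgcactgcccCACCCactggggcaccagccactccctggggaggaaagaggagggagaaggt
Windows were given for 6 of the 7 members. A GATA motif was found in 5 of the 6, against 26.5% of all 32851 windows, and a CACCC box in 5 of the 6, against 52.0% of all windows. The exceptions were Gata1, which held no GATA motif and 2 CACCC boxes in this window, and Epb42, which held 1 GATA motif and no CACCC box. The GATA motif began 183 bases before the start in Hba-a1, 86 in Alas2, 80 in Klf1, 67 in Ermap and 226 in Epb42. The windows of Hba-a1 and its neighbour Hba-a2 shared an unbroken run of 247 bases, and 3 of the 4 probe sets for Hba-a1 list both genes, so their signals cannot be told apart. A match is a description of these letters and says nothing of binding.

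For 11 of the 13 erythroid probe sets the difference between the reporter groups was smaller than the SD among arrays of a group; the exceptions were the dim set of Hba-a1 alone and the brighter set of Epb42. All 13 probe sets overlapped between Ocn+ and Osx+ arrays, whereas 6.55% of all probe sets did not (3.99% higher and 2.56% lower in Ocn+). None of the 13 differed by over 1 log2 unit, beside 1.14% of all probe sets lower and 1.82% higher by that much in Ocn+. In limma 0 of the 13 probe sets had an adjusted p under 0.05, each adjusted p being 1.0, and 0 had an unadjusted p under 0.05. Of all 22626 probe sets 0 passed (0% called), 4.85% had an unadjusted p under 0.05 (3.09% higher and 1.76% lower in Ocn+), and the smallest adjusted p was 0.175. The 95% interval of every one of the 13 differences crossed 0, and 12 of them were below 0, by at most 0.80 log2 units. Among 9 of the 13 probe sets the highest and lowest arrays lay more than 1 log2 unit apart. In 7 of these 9 the samples that stood high were Ocn+ replicate 1 and Osx+ replicates 1 and 3, the exceptions being Klf1 and Ermap. These are also the 3 arrays with little signal for Xist, the RNA that coats the inactive X chromosome of female cells.

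**Figure D1:**
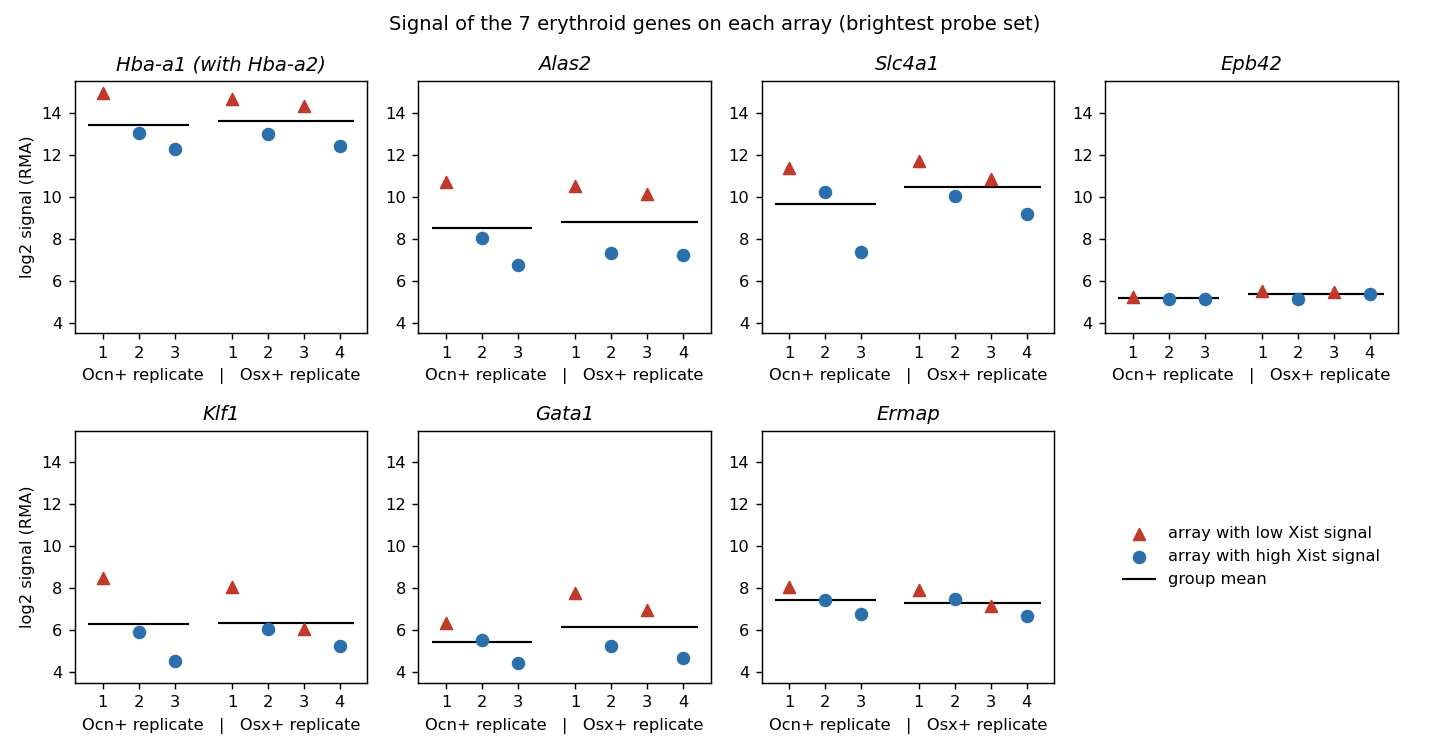
Log2 signal of the brightest probe set of each of the 7 genes on the 3 Ocn+ arrays (left) and the 4 Osx+ arrays (right), with red triangles for arrays of low Xist signal, blue circles for high, and bars for group means. Hba-a1 ranges from 12.26 to 14.95 and Alas2 from 6.72 to 10.70 with each group spanning nearly all of that range, while Epb42 stays between 5.12 and 5.49.

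Some facts of the arrays bear on all that follows. Xist stood at 4.87 to 5.79 log2 units on the 3 arrays called low here and at 12.33 to 12.96 on the other 4, 2 of which are Ocn+ and 2 Osx+. The limit of 8 between them was set from these data, and the labels give no sex. Eif2s3y, a gene of the Y chromosome, read 9.51, 10.07 and 10.41 on the low-Xist arrays and 8.03, 8.78, 9.47 and 4.03 on the high-Xist arrays, so 3 of the 4 high-Xist arrays lay at 8.03 or above. The split was broad: 18.4% of all probe sets were higher and 15.6% lower on the low-Xist arrays without overlap. The control probe sets for Gapdh differed between their 3′ and 5′ ends by 0.89 to 1.26 log2 units on the low-Xist arrays and by 0.59 to 0.64 on the others, and those for beta-actin by 0.47 to 0.77 and by 0.46 to 0.50. Median signal lay at 8.25 to 8.35 on all arrays. Precision is limited by how few arrays there are. Osteolineage signal was plain on all of them, with Col1a1, the main collagen of bone, at 14.91 to 14.98 in Ocn+ and 14.94 to 15.05 in Osx+ arrays. Col1a1 lay near the highest signal of any array (15.21 to 15.28), so it can show little of dilution by other cells. Phex varied more, from 7.79 in Osx+ replicate 1 to 12.03 in Osx+ replicate 4. The mean of 8 osteolineage markers was 12.99, 13.53 and 13.47 in Ocn+ and 12.62, 13.16, 13.24 and 13.56 in Osx+ arrays.

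Alpha globin showed strong signal in every sample. Its brightest probe set read 14.95, 13.01 and 12.26 log2 units in Ocn+ replicates 1 to 3, and 14.66, 12.99, 14.31 and 12.41 in Osx+ replicates 1 to 4. Each group held both high and low arrays, and the highest and the lowest of all 7 were both Ocn+. The difference was -0.18 (SE 0.79, 95% interval -2.04 to 1.67), where the 3 Ocn+ arrays averaged 13.41 ± 1.39 and the 4 Osx+ arrays 13.59 ± 1.07 (mean ± SD). The other probe sets shared with Hba-a2 were high on the same 3 arrays. The second brightest read 13.77, 12.22 and 11.26 in Ocn+ and 13.86, 12.15, 13.32 and 11.37 in Osx+ arrays. For the third the values were 12.14, 9.82 and 9.01 in Ocn+ and 12.39, 9.66, 12.02 and 8.77 in Osx+ arrays, a 12.3-fold span between extremes. The set that lists Hba-a1 alone stayed between 3.67 and 4.42 on all arrays. It had the smallest unadjusted p of the 13 (0.123 in limma, difference -0.31, SE 0.18). Detection calls were not used, and whether so dim a signal lies above background is not known.

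Alas2, the erythroid enzyme that opens heme synthesis, had the largest difference between the Xist classes of any member. It read 10.70, 8.03 and 6.72 log2 units in Ocn+ replicates 1 to 3, and 10.51, 7.31, 10.13 and 7.20 in Osx+ replicates 1 to 4. The 3 low-Xist arrays lay at 10.13 to 10.70 and the 4 others at 6.72 to 8.03, with nothing between. Across reporter groups the difference was -0.30 (SE 1.21, 95% interval -3.17 to 2.56), where the 3 Ocn+ arrays averaged 8.48 ± 2.03 and the 4 Osx+ arrays 8.79 ± 1.78 (mean ± SD). With the Xist signal class as a term it was 0.23 (SE 0.32, 95% interval -0.55 to 1.00).

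Slc4a1, the band 3 gene, spanned the most. Its brightest probe set read 11.36, 10.22 and 7.36 in Ocn+ replicates 1 to 3, and 11.70, 10.04, 10.84 and 9.18 in Osx+ replicates 1 to 4. Ocn+ replicate 3 stood below all other arrays, and the highest array was 20.3-fold brighter than it. The difference of -0.80 (SE 1.00, 95% interval -3.16 to 1.57) was smaller than the SD within either group (SD 2.06 over the 3 Ocn+ arrays and 1.08 over the 4 Osx+ arrays). The second set had the same order, at 11.43, 9.99 and 7.44 in Ocn+ and 11.67, 9.75, 10.64 and 9.12 in Osx+ arrays. The third stayed between 4.86 and 5.74. Without Ocn+ replicate 3 the 2 brighter sets differed by 0.35 and 0.41, so the sign of the Slc4a1 difference rests on that array.

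Epb42, whose protein binds band 3, did not follow it. Its brighter probe set read 5.22, 5.13 and 5.13 in Ocn+ and 5.49, 5.12, 5.46 and 5.34 in Osx+ arrays, and the other 4.83, 4.43 and 4.08 in Ocn+ and 4.64, 4.69, 4.32 and 4.24 in Osx+ arrays. Both sets lay below the 25th percentile of mean signal over the table (5.67), as did 2 further member sets, and no order of arrays stood out. The differences were -0.19 (SE 0.15) and -0.03 (SE 0.23). Ermap varied more than Epb42 and less than the other members' brightest sets, at 8.08, 7.43 and 6.77 in Ocn+ replicates 1 to 3 and 7.94, 7.51, 7.17 and 6.67 in Osx+ replicates 1 to 4. Replicate 1 was the highest of each group, and Osx+ replicate 3 lay below the second replicate of both groups. Ermap was the single member with a difference above 0, of 0.11 (SE 0.40, 95% interval -0.83 to 1.05).

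**Figure D2:**
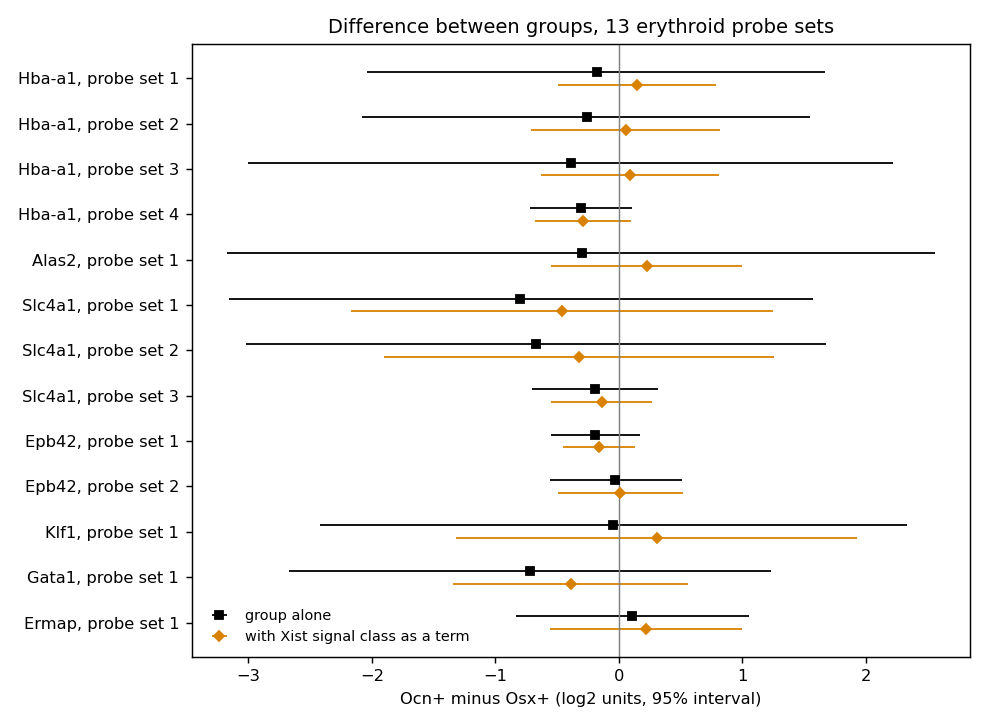
Ocn+ minus Osx+ difference in log2 units for the 13 probe sets, with 95% intervals from limma, fitted on the group alone (black squares) and with the Xist signal class as a term (orange diamonds); probe sets of a gene are numbered from the brightest. Every interval crosses 0, and that of Alas2 runs from -3.17 to 2.56 without the term and from -0.55 to 1.00 with it.

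The transcription factors varied in the same samples, though not in the same way. Gata1 read 6.36, 5.55 and 4.43 in Ocn+ replicates 1 to 3 and 7.76, 5.24, 6.97 and 4.69 in Osx+ replicates 1 to 4. The 2 low-Xist Osx+ arrays were the highest, the low-Xist Ocn+ array came next, and the other 4 lay below. Its difference was -0.72 (SE 0.83, 95% interval -2.67 to 1.23), the largest among the members after Slc4a1, where the 3 Ocn+ arrays averaged 5.45 ± 0.97 and the 4 Osx+ arrays 6.17 ± 1.44 (mean ± SD). Klf1, the activator of adult globin genes, read 8.47, 5.92 and 4.56 in Ocn+ and 8.05, 6.07, 6.05 and 5.27 in Osx+ arrays. Here replicate 1 of each group stood apart, and Osx+ replicate 3, high for Alas2 and Gata1, was level with the second replicates. The Klf1 difference was -0.05 (SE 1.01, 95% interval -2.42 to 2.33).

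Within the Xist classes the reporter groups were set side by side. Among high-Xist arrays, 2 Ocn+ against 2 Osx+, the difference was -0.06 for the brightest Hba-a1 set, 0.12 for Alas2, 0.02 for Gata1, -0.44 for Klf1 and -0.82 for the brightest Slc4a1 set. Low-Xist arrays gave 0.46 for Hba-a1, 0.38 for Alas2, 1.42 for Klf1 and 0.08 for Slc4a1, each resting on a single Ocn+ array. Gata1 stood at 6.36 on that Ocn+ array, against 7.76 and 6.97 on the low-Xist Osx+ arrays. With the class as a term, 0 of the 13 passed in limma (adjusted p 0.448 to 0.982, against 0.00442% of all probe sets called). The interval of the Hba-a1 difference was then -0.49 to 0.79, against -2.04 to 1.67 without the term.

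Set against the Xist classes, 7 of the 13 probe sets, from 4 of the 7 genes, were higher on the low-Xist arrays without overlap, beside 18.4% of all probe sets, and 0 were lower. These were the 3 shared alpha globin sets, Alas2, the 2 brighter Slc4a1 sets and Gata1. Differences of means, low minus high, were 1.98 for the brightest Hba-a1 set, 3.13 for Alas2, 2.10 for the brightest Slc4a1 set, 2.05 for Gata1 and 2.07 for Klf1, which overlapped. By over 1 log2 unit 8 of the 13 were higher on the low-Xist arrays, beside 5.21% of all probe sets. The differences were 0.64 for Ermap and 0.21 for the brighter Epb42 set. The median over the brightest set of each member was 2.05, and over all probe sets 0.08. Since the classes were drawn from the data, no test is given. Whether sex, RNA quality or another property of these arrays has a part in the erythroid signal was not tested.

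**Figure D3:**
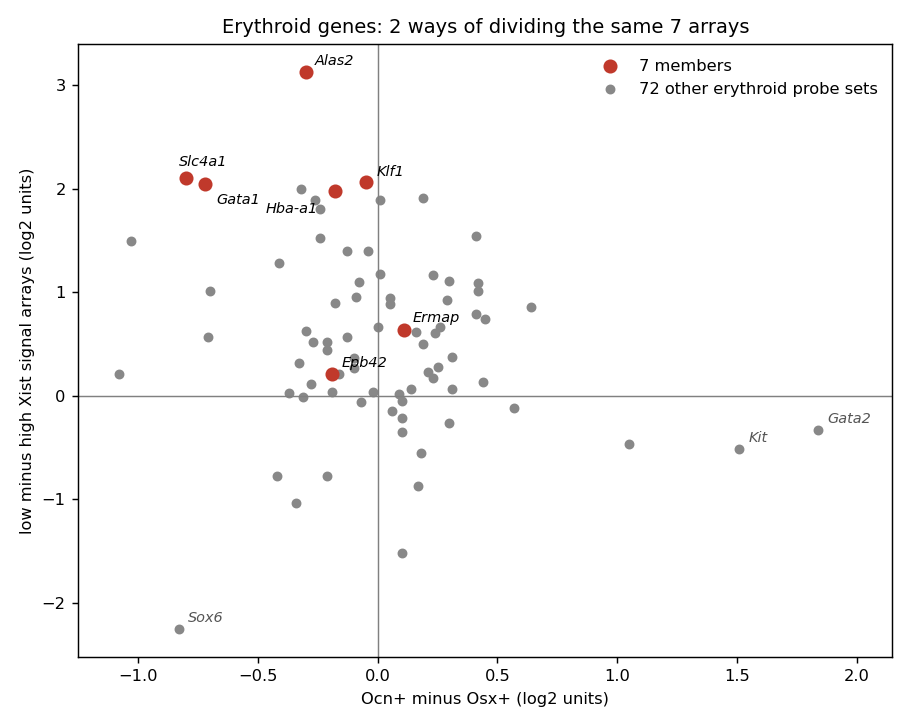
Each point is a probe set, placed by its Ocn+ minus Osx+ difference (horizontal) and by the difference of low-Xist minus high-Xist arrays (vertical), both in log2 units, for the 7 members (red, brightest set) and 72 probe sets of the other erythroid lists (grey). The members lie between -0.80 and 0.11 across and between 0.21 and 3.13 up, while Gata2 and Kit lie far to the right.

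The wider red cell programme was read from 7 further lists with 83 genes, of which 76 were measured, by 72 probe sets that represent no member. In limma 0 of the 72 had an adjusted p under 0.05. At an unadjusted p under 0.05 there were 4 higher in Ocn+ cells, beside 3.09% of all probe sets, and 0 lower, and the median difference was 0.03, against 0.00 over the table. On the low-Xist arrays 24 of the 72 (33.3%) were higher without overlap, beside 18.4% of all, and 6 were lower, beside 15.6%.

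Among the globins 0 of 4 probe sets reached an unadjusted p under 0.05. Their chaperone Ahsp, also on this list, was not measured. The brightest set for adult beta globin lists Hbb-bt, Hbb-bs, Hbb-b2 and Hbb-b1 together. It stood at 14.74, 13.96 and 13.42 in Ocn+ and 14.72, 14.02, 14.50 and 13.63 in Osx+ arrays, in nearly the order of alpha globin, and differed by -0.18 (SE 0.38). The brighter of 2 sets that list Hbb-b2 alone read 13.03, 12.27 and 11.74 in Ocn+ and 13.15, 12.33, 13.08 and 11.90 in Osx+ arrays. Hbb-bh1, an embryonic globin, differed by -0.71 (SE 0.32), with Ocn+ arrays at 5.28 to 6.20 and Osx+ arrays at 5.99 to 6.95. Its 2 dimmer sets differed by -0.09 (SE 0.19) and -0.10 (SE 0.20), and the embryonic globins Hba-x and Hbb-y by 0.41 (SE 0.38) and -0.16 (SE 0.22).

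Of 15 genes of the red cell membrane and skeleton 0 reached an unadjusted p under 0.05, with a median difference of -0.24. Sptb, the beta spectrin of the skeleton, differed by -0.21 (SE 0.28), Ank1, the ankyrin that anchors band 3, by -0.30 (SE 0.55), and Rhag, the Rh-associated glycoprotein, by -0.21 (SE 0.36). Ank1 stood at 8.21 in Osx+ replicate 1 and at 5.82 to 6.64 on the other arrays. On the low-Xist arrays 4 of the 15 (26.7%) were higher without overlap, beside 18.4% of all probe sets, and 0 were lower, beside 15.6%.

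Heme synthesis and mitochondrial import had 10 measured genes, of which 1 was higher at an unadjusted p under 0.05. That was Urod, an enzyme of the middle of the pathway and chosen with its values in view, with a difference of 0.44 (SE 0.18, limma adjusted p = 1.0). Fech, which inserts the iron, differed by 0.10 (SE 0.16), Cpox by 0.10 (SE 0.63) and the iron importer Slc25a37 by -0.13 (SE 0.30). On the low-Xist arrays 6 of the 10 were higher without overlap, beside 18.4% of all probe sets. Cpox was the 1 that was lower, beside 15.6%, at no more than 9.28 on low-Xist arrays and at 9.97 to 10.43 on the others. A dimmer Cpox set overlapped between the Xist classes. Fech overlapped in its brightest and its dimmest set. Its other sets were lower on the low-Xist arrays without overlap (low minus high -0.32 and -0.84). Of 6 genes of iron uptake 0 reached an unadjusted p under 0.05. On the low-Xist arrays 2 were higher and 2 lower without overlap, beside 18.4% and 15.6% of all probe sets. The transferrin receptor Tfrc was among the lower, at 10.46, 10.91 and 10.48 on low-Xist arrays and 11.03 to 12.18 on the others. Its difference between reporter groups was -0.21 (SE 0.42), and its 2 dimmer sets overlapped between the Xist classes.

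Among 14 erythroid transcription factors and cofactors 1 had an unadjusted p under 0.05, Gata2, which precedes Gata1 in blood progenitors. Gata2 read 9.70, 9.69 and 9.40 in Ocn+ and 7.63, 7.97, 7.74 and 7.69 in Osx+ arrays. The groups were far apart and the difference was 1.84 (SE 0.16, limma adjusted p = 0.175), which did not pass and passed with array weights (1.85, adjusted p = 0.0337). Those weights were 0.23 to 0.47 on the low-Xist arrays and 6.07 on Ocn+ replicate 2, so the weighted fit rests mainly on high-Xist arrays. The partners of Gata1 stayed within their spread. Tal1 differed by 0.19 (SE 0.81), Nfe2 by 0.42 (SE 0.53), Zfpm1, the cofactor FOG-1, by 0.23 (SE 0.51), Gfi1b by 0.41 (SE 0.87) and Lmo2 by 0.21 (SE 0.30). Tal1, Nfe2 and Zfpm1 were among the 5 of the 14 that were higher on low-Xist arrays without overlap, and 2 were lower. Of all probe sets 18.4% were higher and 15.6% lower in this way. Gfi1b had the profile of Klf1, at 8.54 in Ocn+ replicate 1, 8.43 in Osx+ replicate 1 and 5.67 to 6.23 elsewhere.

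Erythroid receptors and kinases counted 7 genes, with 2 higher at an unadjusted p under 0.05, Kit and Stat5b. Kit, the receptor of stem cell factor on progenitors and mast cells, read 6.86, 7.21 and 7.45 in Ocn+ and 5.15, 5.70, 6.03 and 5.75 in Osx+ arrays. Its difference was 1.51 (SE 0.25, limma adjusted p = 0.673), and 1.52 with array weights (adjusted p = 0.0346). A dimmer Kit set overlapped between groups, at 4.56, 5.52 and 6.19 in Ocn+ and 4.76, 4.13, 4.93 and 4.98 in Osx+ arrays, with a difference of 0.72 (SE 0.41). Stat5b, a transducer of the erythropoietin signal and likewise chosen with its values in view, differed by 0.57 (SE 0.14, limma adjusted p = 0.794). Epor, the erythropoietin receptor, read 7.01, 6.18 and 6.24 in Ocn+ and 8.35, 5.89, 6.09 and 5.88 in Osx+ arrays, a difference of -0.08 (SE 0.64). On the low-Xist arrays 1 of the 7 was higher and 0 lower without overlap, beside 18.4% and 15.6% of all probe sets.

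Red cell enzymes and late erythroblast genes numbered 17, with 0 at an unadjusted p under 0.05 and a median difference of -0.09. The carbonic anhydrase Car1 read 9.13, 7.46 and 5.91 in Ocn+ and 10.01, 8.31, 5.83 and 6.02 in Osx+ arrays, so Osx+ replicate 3 was low for Car1 though high for alpha globin. Hemgn, a nuclear protein of erythroid cells, differed by -1.03 (SE 0.92), Trim10 by -0.26 (SE 0.77), Car2 by 0.64 (SE 0.51), Bpgm by 0.23 (SE 0.20) and Prdx2 by 0.14 (SE 0.14). Low-Xist arrays were higher without overlap for 4 of the 17 (23.5%) and lower for 1, beside 18.4% and 15.6% of all probe sets.

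Gata1 is also used by megakaryocytes, mast cells and eosinophils, so their markers are given beside it. The mean of 11 megakaryocyte markers was 8.02, 7.41 and 7.71 in Ocn+ and 7.87, 7.67, 7.86 and 7.39 in Osx+ arrays. It was higher on all 3 low-Xist arrays (7.86 to 8.02) than on the others (7.39 to 7.71), but this order depends on Vwf. That gene read 10.45, 7.64 and 8.76 in Ocn+ and 4.96, 6.11, 9.54 and 5.42 in Osx+ arrays. Of the 11 markers, 4 were higher on the low-Xist arrays without overlap and 1 was lower, beside 18.4% and 15.6% of all probe sets. Itga2b was one of the 4 (difference between reporter groups 0.41, SE 0.41). At an unadjusted p under 0.05, 0 were higher and 1 was lower in Ocn+ cells, the platelet chemokine Ppbp, named with its values in view (difference -2.29, SE 0.53, limma adjusted p = 0.791). Pf4, platelet factor 4, did not reach that p (difference -1.11, SE 0.48), nor did Vwf, which endothelial cells also make and which ran the other way (2.44, SE 1.19). The mean of 11 mast cell and basophil markers was 6.95, 6.48 and 5.29 in Ocn+ and 5.20, 5.88, 7.54 and 4.93 in Osx+ arrays. It was highest in Osx+ replicate 3, where the mast cell protease Cpa3 stood at 8.69 against 4.36 to 5.39 on the other Osx+ arrays and 4.56 to 5.30 on the Ocn+ arrays. Other proteases of the list, named with their values in view, were also high in Ocn+ replicates 1 and 2. Mcpt4 read 8.43, 7.65 and 4.14 in Ocn+ and 4.19, 5.99, 10.35 and 4.05 in Osx+ arrays. In Ocn+ arrays Tpsb2 read 9.06, 8.18 and 5.48, and Cma1 7.98, 7.70 and 3.95. Tpsab1 stood at 7.21 in Osx+ replicate 3 and at 3.99 to 4.87 elsewhere, and Mcpt8 was highest in Ocn+ replicate 1, at 8.64. Of the 11 markers, 2 were higher in Ocn+ cells at an unadjusted p under 0.05, Gata2 and Kit, and 0 lower. Over all probe sets 3.09% were higher and 1.76% lower at that p. The receptor subunit Ms4a2 stayed at 3.67 to 4.06 on all arrays. Eosinophil markers averaged 4.80, 6.58 and 6.22 in Ocn+ and 4.97, 4.36, 4.22 and 4.21 in Osx+ arrays. Prg2, the major basic protein, read 6.79, 12.24 and 10.67 in Ocn+ and 4.17 to 5.05 in Osx+ arrays. In all, 2 of the 7 eosinophil markers, Prg2 and Epx, were higher in Ocn+ cells at an unadjusted p under 0.05 and 0 lower. The shares of all probe sets were again 3.09% and 1.76%. The 2 Ocn+ arrays with the most Prg2 had the least Gata1 of their group. Another marker of the list, Prg3, went another way in Osx+ arrays and is named with its values in view. It read 3.78, 6.55 and 6.32 in Ocn+ and 7.13, 3.85, 4.28 and 3.89 in Osx+ arrays. Prg3 was thus highest in Osx+ replicate 1, the array with the most Gata1. The part of these cells in the Gata1 signal was not tested.

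Macrophages of erythroblastic islands were the other cells read beside the members. The mean of 13 markers was 9.81, 9.33 and 9.80 in Ocn+ and 10.38, 10.71, 10.11 and 9.98 in Osx+ arrays, without overlap between groups. At an unadjusted p under 0.05, 0 markers were higher and 3 lower in Ocn+ cells, beside 3.09% and 1.76% of all probe sets. After adjustment 0 of the 13 passed. The difference was below 0 for 10 of the 13. It was above 0 for 3: Csf1r (0.28, SE 0.39), Hmox1 (0.41, SE 0.19) and Epb41l3 (0.06, SE 0.77). Adgre1, which encodes F4/80, differed by -1.63 (SE 0.59, limma adjusted p = 0.988) and Vcam1, an adhesion molecule of island macrophages and stroma, by -0.37 (SE 0.25). On the low-Xist arrays 1 of the 13 was higher and 1 lower without overlap, beside 18.4% and 15.6% of all probe sets. The macrophage mean was highest in Osx+ replicate 2, which was not one of the 3 arrays with the highest erythroid signal. It was next highest in Osx+ replicate 1, which was one of them. The markers did not order these arrays alike: C1qa read 12.26 in replicate 1 and 11.72 in replicate 2, and Cd163 read 6.73 and 10.73. The part of macrophages in the erythroid signal was not tested.

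**Figure D4:**
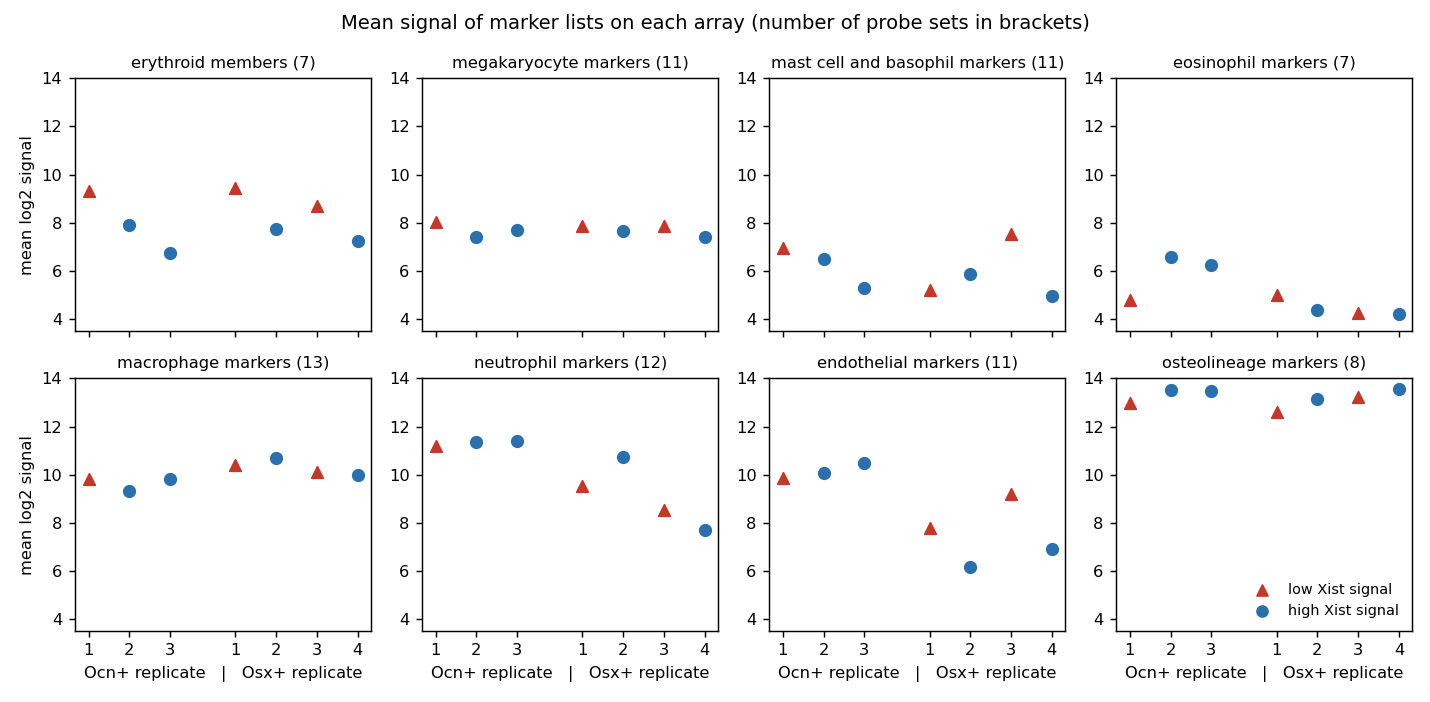
Mean log2 signal of 8 gene lists on each array, Ocn+ left and Osx+ right in each panel, with red triangles for low and blue circles for high Xist signal. The erythroid members reach 9.31, 9.44 and 8.70 on the 3 low-Xist arrays and 6.75 to 7.90 on the others. The megakaryocyte mean is 7.86 to 8.02 on the low-Xist arrays and 7.39 to 7.71 on the others, a split that depends on Vwf. The order among the arrays of each class is another one.

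The genes whose profile over the 7 arrays was most like the mean of the members were Lmbr1l, St6galnac2, Atad3a, Aacs, Wdr4, Slc25a22, Tor3a and Tgm1, with Pearson r of 0.98 to 0.99 among 7071 probe sets of SD 0.5 or more. Nearest to Hba-a1 were Nfkbib, Zc3h12a and Tor3a, to Alas2 Nhp2, Ppan and Atad3a, and to Gata1 Coro2b, Uqcrq and Tor3a. For Klf1 they were Stk32c, Icosl and Kel, the last a red cell blood group antigen. Slc4a1 was nearest to Tnfrsf12a, Wnt11 and Rpl35, Ermap to Trappc4, Icosl and Ube2t, and Epb42 to Ctrb1, Metrn and Csn3. These are ranks over few arrays that fall into 2 classes, so high values are common and no p is given.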

How the data were processed

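Total RNA from sorted cells was amplified and labelled with biotin, per the labels' protocols. The authors deposited log2 values from RMA, as the submitters' processing notes name it, a method that corrects background, quantile-normalizes arrays and sums up probes. Which software ran it is not given in the sources used here. Quantile normalization hides changes of total RNA per cell.

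Of 22690 probe sets 64 were controls. The other 22626 were fitted together, 20380 with 1 gene symbol (20351 updated by Entrez identifier), 691 with several and 1555 with none listed. Ocn+ minus Osx+ was tested with limma 3.58.1 (lmFit, eBayes) under R 4.3.3, 2-sided, without a block, with Benjamini-Hochberg adjustment over the table and a threshold of 0.05. Where a list gene had several probe sets, the brightest on average stood for it. Figures used matplotlib 3.10.9 under Python 3.11.15.

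Groups came from sample titles. Shared replicate numbers were not taken as pairs. Correlations of deviations were 0.66, 0.48 and -0.36 for replicates 1 to 3. Replicates 1 and 2 share an Xist class between the groups and replicate 3 does not, so these correlations cannot decide pairing. Named genes were all members plus a list of names, and the nearest profiles by Pearson r over 1-symbol sets. Members, lists and the Xist classes were chosen with earlier results of these data known. The alternatives were the replicate block, leaving out arrays, dim-signal filters, other normalization, prior, weights and probe set choice, the Xist class and a threshold of 0.1.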

Additional observations from a re-analysis of the deposited data

Results flagged for a closer look

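Among the 4 Osx+ arrays, single values far from the other 3 were sought in 44 probe sets, the 13 of the members and the brightest of each other named gene. Values of 2 of the 44 probe sets stood apart, where chance gives about 1 in 20, so this count is about what chance gives. Epor, the erythropoietin receptor, read 8.35 in Osx+ replicate 1 and 5.88 to 6.09 on the other Osx+ arrays. Epx, the eosinophil peroxidase, read 5.24 in Osx+ replicate 3 and 4.80 to 4.86 on the others. No member was among them. Groups of 3 arrays were not examined in this way.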

How the results depend on the processing

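Over 20 alternatives 0 member probe sets passed in limma, the smallest adjusted p being 0.448. Of 241 member differences under these alternatives 196 kept their sign and 45 changed it. With the replicate block 0 passed, members and table alike, and the Ermap difference was -0.11. The whole table had 68 calls with array weights, 1 with the Xist class as a term and 6 among high-Xist arrays; leaving out an array gave 0 to 5, with 2 without Osx+ replicate 2 and 5 without Osx+ replicate 3. The other erythroid lists had 2 calls with array weights, Gata2 and Kit. Array weights were 0.23 to 0.47 on the low-Xist arrays, 6.07 on Ocn+ replicate 2 and 1.12 to 2.02 on the rest. Signs changed as follows. Quantile normalization gave Epb42 0.01. Array weights gave the 3 shared alpha globin sets 0.05, 0.15 and 0.20, Gata1 0.08 and Alas2 0.17. The Xist term gave those alpha globin sets 0.15, 0.06 and 0.09, Klf1 0.31, Alas2 0.23 and Epb42 0.01. Among high-Xist arrays 1 alpha globin set stood at 0.20, Gata1 at 0.02 and Alas2 at 0.12. Low-Xist arrays gave alpha globin 0.46 and 0.17, Slc4a1 0.28 and 0.08, Epb42 0.35, Klf1 1.42 and Alas2 0.38. Leaving out 1 array moved the alpha globin sets within -0.96 to 0.39, -0.94 to 0.32 and -1.30 to 0.27, Alas2 within -1.41 to 0.58, Slc4a1 within -1.65 to 0.35 and -1.58 to 0.41, Klf1 within -1.13 to 0.83, Ermap within -0.22 to 0.44 and Epb42 within -0.22 to 0.16. The dim sets of Hba-a1 (-0.40 to -0.19) and Slc4a1 (-0.31 to -0.05), the brighter Epb42 set (-0.27 to -0.14) and Gata1 (-1.21 to -0.19) kept their sign without each array. The median member difference ran from -1.13 without Ocn+ replicate 1 to 0.39 without Ocn+ replicate 3. With dim probe sets left out 9 and 6 of the 13 member sets remained. The causes were not tested. With 3 against 4 arrays an exact test cannot fall below 0.0571.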

Other observations

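Beside 18.4% higher and 15.6% lower of all probe sets, 0 neutrophil or endothelial markers were higher or lower without overlap on the low-Xist arrays. Each Xist class holds arrays of both reporter groups, between which both list means lay apart, so this count does not compare classes within a group. In Osx+ the endothelial mean was 7.78 and 9.2 on the low-Xist arrays and 6.14 and 6.91 on the high-Xist arrays. In Ocn+ it was 9.84 on the low-Xist array and 10.05 and 10.49 on the high-Xist arrays. All 12 neutrophil markers had a difference above 0. Of them 8 had an unadjusted limma p under 0.05 (0 adjusted), beside 3.09% of all probe sets higher in Ocn+. The neutrophil mean was 11.18, 11.37 and 11.39 in Ocn+ and 9.52, 10.75, 8.54 and 7.69 in Osx+ arrays. All 11 endothelial markers had an unadjusted p under 0.05 and were higher in Ocn+ cells (0 adjusted), beside the same 3.09%. Osteolineage markers, 8 measured, had a median difference of 0.07, with 0 at an unadjusted p under 0.05.

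B cell markers, 7 measured, had 0 at an unadjusted p under 0.05, and their mean was 8.45, 7.79 and 7.68 in Ocn+ and 8.76, 7.59, 7.48 and 7.35 in Osx+ arrays. This mean was highest in replicate 1 of both groups, as for Klf1 and Gfi1b, and Osx+ replicate 3, high for alpha globin and Alas2, was not. The markers did not all follow this: Ebf1, a factor of B cells that stromal cells also express, was lowest in replicate 1 of both groups, at 9.49, 9.86 and 10.22 in Ocn+ and 6.75, 9.97, 10.02 and 9.87 in Osx+ arrays. Cd79b, a chain of the B cell receptor complex chosen with its values in view, read 8.45, 7.20 and 6.76 in Ocn+ and 10.30, 7.80, 6.23 and 6.79 in Osx+ arrays.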
